A study of Mus musculus with 8 samples.

Results

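Cxcl1, Cxcl2, Cxcl3 and Cxcl5 are the mouse genes for chemokines that bind CXCR2, and they were chosen by symbol, 4 of the 54146 genes quantified in each library. RNA was sequenced from primary astrocytes of neonatal C57BL/6 mouse cortex in 4 groups of 2 biological replicates. Control KD astrocytes carried a non-silencing shRNA and GSTM1 KD astrocytes an shRNA against Gstm1, both from a lentivirus with puromycin selection. Each kind was taken unstimulated (basal level) and 6 h after the addition of 50 ng/ml TNF-α. No promoter restricted the shRNA to astrocytes: infection preceded the removal of loosely attached glia by shaking and of CD11b+ microglia by magnetic sorting, so the cultures depend on that enrichment. Whether 2 replicates came from separate litters or cultures is not given in the labels, so p-values measure the spread between these libraries. The total expected count per library ran from 17349682 to 34434615.

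CXCR2 is the receptor by which neutrophils follow gradients of small chemokines that carry a glutamate-leucine-arginine motif. CXCL1 (KC) and CXCL2 (MIP-2) are the ligands most often measured in inflamed mouse brain, CXCL3 is a close relative, and CXCL5 (LIX) is a ligand made by many epithelial and stromal cells. Their transcription is a classic NF-κB response to TNF-α, and their mRNAs turn over fast through AU-rich elements in the 3′ untranslated region (UTR), to which proteins such as tristetraprolin (Zfp36) bind.

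All 4 genes lie on the plus strand of chromosome 5 (GRCm38), in the order Cxcl5 (chr5:90759360-90761624), Cxcl3 (chr5:90786103-90789600), Cxcl1 (chr5:90891241-90893115) and Cxcl2 (chr5:90903871-90905938). The span of 146579 bases holds 11 annotated genes, 7 of them protein-coding, and none of the 4 overlaps another annotated gene. Over their aligned coding bases Cxcl2 and Cxcl3 were 89.8% identical and shared 11 overlapping words of 100 bases. No other pair shared a word of 25 bases, and identity ran from 64.7% to 78.7%. Reads from the shared part of Cxcl2 and Cxcl3 could be divided between them by RSEM, which leaves the low Cxcl3 values uncertain. Of the 32 member values, 30 were whole within 0.005, and both exceptions, Cxcl2 and Cxcl3, were in replicate 1 of control KD at the basal level.

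The promoters of Cxcl1, Cxcl2 and Cxcl3 are shown with the words that they share. They are RefSeq windows of 300 bases (GRCm38.p6, plus strand, 250 bases before the start and 50 from it on) at chr5:90890995-90891294 for Cxcl1, chr5:90903649-90903948 for Cxcl2 and chr5:90785851-90786150 for Cxcl3, matched by symbol for 3 of the 4 genes. Capitals mark the words of 11 and 13 bases found in all 3. These words were picked because all 3 windows hold them, so the sharing is no separate finding. Cxcl5 had no window to search.
Cxcl1: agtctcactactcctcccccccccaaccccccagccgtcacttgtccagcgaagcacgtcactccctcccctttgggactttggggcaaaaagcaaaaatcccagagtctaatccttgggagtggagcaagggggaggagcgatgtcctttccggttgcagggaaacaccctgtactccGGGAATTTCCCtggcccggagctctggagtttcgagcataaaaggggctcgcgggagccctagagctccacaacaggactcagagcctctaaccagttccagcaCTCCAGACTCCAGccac
Cxcl2: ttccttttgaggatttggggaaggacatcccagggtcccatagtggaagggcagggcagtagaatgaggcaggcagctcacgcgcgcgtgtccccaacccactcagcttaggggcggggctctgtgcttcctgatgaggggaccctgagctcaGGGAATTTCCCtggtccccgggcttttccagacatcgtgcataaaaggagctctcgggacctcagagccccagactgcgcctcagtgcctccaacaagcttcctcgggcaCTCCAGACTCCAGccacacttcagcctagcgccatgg
Cxcl3: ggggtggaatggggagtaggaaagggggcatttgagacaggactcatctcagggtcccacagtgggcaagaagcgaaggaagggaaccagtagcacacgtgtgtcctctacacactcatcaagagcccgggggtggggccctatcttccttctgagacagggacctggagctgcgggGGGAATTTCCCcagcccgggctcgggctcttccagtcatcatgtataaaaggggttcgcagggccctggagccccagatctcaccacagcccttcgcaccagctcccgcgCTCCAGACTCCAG

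The upstream word, GGGAATTTCCC, began 71 bases before the RefSeq start in Cxcl1, 97 in Cxcl2 and 73 in Cxcl3. Counted from the GENCODE gene starts, which differ most for Cxcl2, the distances were 67, 69 and 75 bases. It was searched on both strands, and it holds a match to the NF-κB consensus on each, shifted by 1 base. It stood in 14 of 32851 promoters of that length (0.0426%), whereas the NF-κB consensus alone stood in 8.46%. The downstream word, CTCCAGACTCCAG, was in 4 of 32851 promoters (0.0122%), those of Cxcl1, Cxcl2, Cxcl3 and Gm51933. The TATA-box word ATAAAAG was in 3 of the 3 windows and in 5.42% of all, and began 34, 57 and 29 bases before the start in Cxcl1, Cxcl2 and Cxcl3. TGANTCA, an AP-1 word, was in 0 of the 3 and in 7.81% of all. A match describes these letters and was not tested as a binding site.

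**Figure D1:**
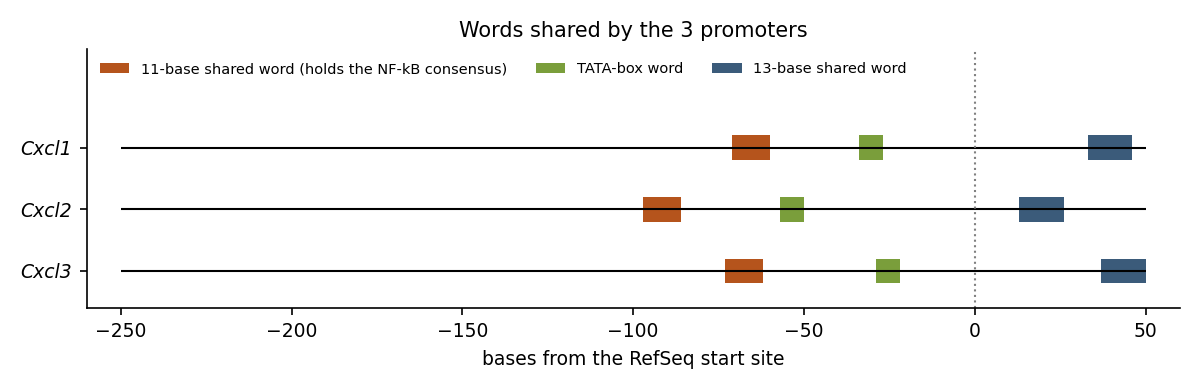
Positions of the words found in the promoters of Cxcl1, Cxcl2 and Cxcl3, in bases from the RefSeq start site (dotted line). Blocks are drawn to scale, and the 11-base word lies 71, 97 and 73 bases before the start, ahead of the TATA-box word in each promoter.

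The 3′ UTRs were read for ATTTA, the core of AU-rich elements, on the transcript strand. The UTR of 592 bases in Cxcl1 held 7 copies, that of 734 bases in Cxcl2 held 11, that of 645 bases in Cxcl3 held 5 and that of 1111 bases in Cxcl5 held 5. The density was 11.8, 15.0, 7.75 and 4.50 copies per kilobase, in the same order. Of 41730 coding transcripts with a 3′ UTR, 57.5% held ATTTA and 22.7% held the longer TATTTAT, of which Cxcl1 had 6, Cxcl2 7, Cxcl3 2 and Cxcl5 1. The 30-base windows below (GRCm38, plus strand) are the densest of each UTR, with ATTTA in capitals, at chr5:90892602-90892631 in Cxcl1, chr5:90905327-90905356 in Cxcl2, chr5:90787629-90787658 in Cxcl3 and chr5:90760634-90760663 in Cxcl5.
Cxcl1: gagggtcctATTTATTTAtgtATTTATTTA
Cxcl2: tATTTATTTAtctatgtATTTATTTATTTA
Cxcl3: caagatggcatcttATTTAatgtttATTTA
Cxcl5: agcttcctgctcatctcacaagtgtATTTA

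The targeted gene was checked first. Gstm1 had 676 and 626 counts in unstimulated GSTM1 KD libraries against 8153 and 9644 in the controls, and after TNF-α 527 and 405 against 4851 and 6492. It was 10.1-fold lower unstimulated and 12.8-fold lower with TNF-α (edgeR, adjusted p = 0.0132 and 0.00981), as the labels give it. All 8 astrocyte markers had counts in every group, and their summed level was 1562 and 3711 TPM in unstimulated control libraries against 3556 and 5599 in GSTM1 KD ones, and 1561 and 3576 against 3421 and 5300 after TNF-α. Replicate 1 of control KD thus stood lowest in both states. The groups overlapped, with control replicate 2 above GSTM1 KD replicate 1 unstimulated (3711 and 3556) and after TNF-α (3576 and 3421). The median log2 fold change of the 8 was 0.19 unstimulated and 0.02 after TNF-α. Of the 8, S100b was called, as lower in GSTM1 KD (log2 fold change -1.44 unstimulated and -1.71 after TNF-α; edgeR, adjusted p = 0.0269 and 0.0387), 1 of 8 where 5.62% and 8.92% of all genes were, while Gfap (1.10 and 1.08) and Aldh1l1 (1.05 and 1.22) were above 0 without passing and Sox9 (-0.50 and -0.41) below. The part of these differences in the chemokine levels was not tested. Neutrophil markers were at or near 0, with a summed level of at most 0.67 TPM in any library, and Ly6g, Mpo, Elane, Ngp and S100a9 had 0 counts in all 8.

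On the scale of TPM, which corrects for transcript length, the order of the levels was Cxcl1, then Cxcl2, then Cxcl3 and Cxcl5, in all 4 groups, and Cxcl1 stood above Cxcl2 in all 8 libraries. In control KD at the basal level Cxcl1, a main neutrophil attractant, was at 21.97 and 14.90 TPM in replicates 1 and 2, and in GSTM1 KD at 5.41 and 4.14. After TNF-α it was at 76.08 and 286.18 TPM in control KD and at 22.00 and 25.45 in GSTM1 KD. The lower control library after TNF-α thus stood above every other library outside its group, while the GSTM1 KD libraries after TNF-α lay beside the unstimulated control ones. The control pair after TNF-α was the widest of the 4 pairs, 3.72-fold apart after TMM scaling against 1.18- to 1.51-fold in the other pairs.

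Cxcl2, the second of the abundant ligands, was at 8.54 and 2.80 TPM in control KD at the basal level and at 1.38 and 1.34 in GSTM1 KD. After TNF-α it was at 49.62 and 72.54 TPM in control KD and at 9.77 and 7.67 in GSTM1 KD. Neither knockdown comparison overlapped, although 1 GSTM1 KD library after TNF-α lay below the higher unstimulated control library in TPM. With 2 libraries a group, a lack of overlap is a description only, here and below. The share of all genes without overlap was not counted. Its effective length in the files varied from 500 to 889 bases between libraries, which moves its TPM but not its count. In TMM-scaled counts stimulated GSTM1 KD (4.20 and 3.85 CPM) and unstimulated control KD (3.45 and 1.45 CPM) did not overlap. After TMM scaling of the counts, the widest pair was control KD at the basal level (2.38-fold).

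Cxcl3, the relative of Cxcl2, was at the edge of detection. Its counts were 4 and 1 in control KD at the basal level, 0 and 1 in GSTM1 KD, 17 and 7 in control KD after TNF-α, and 6 and 1 in GSTM1 KD after TNF-α. Cxcl3 reached 1.44 and 0.91 TPM in the control libraries after TNF-α and stayed between 0 and 0.61 TPM in the other 6. Its count was 0% to 7.69% of that of Cxcl2 in the same library, so it was the minor of the 2 near-identical genes throughout.

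Cxcl5 was at 0 and 1 counts in the unstimulated control libraries and at 0 in both GSTM1 KD ones. After TNF-α the control libraries held 12 and 13 counts (0.65 and 0.98 TPM) and the GSTM1 KD libraries 8 and 4 (0.47 and 0.30 TPM). The groups did not overlap after TNF-α. After TNF-α the TPM ranges of Cxcl3 and Cxcl5 overlapped in both kinds of astrocyte, so the 2 genes could not be ordered there, and without TNF-α they rest on at most 4 counts a library.

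**Figure D2:**
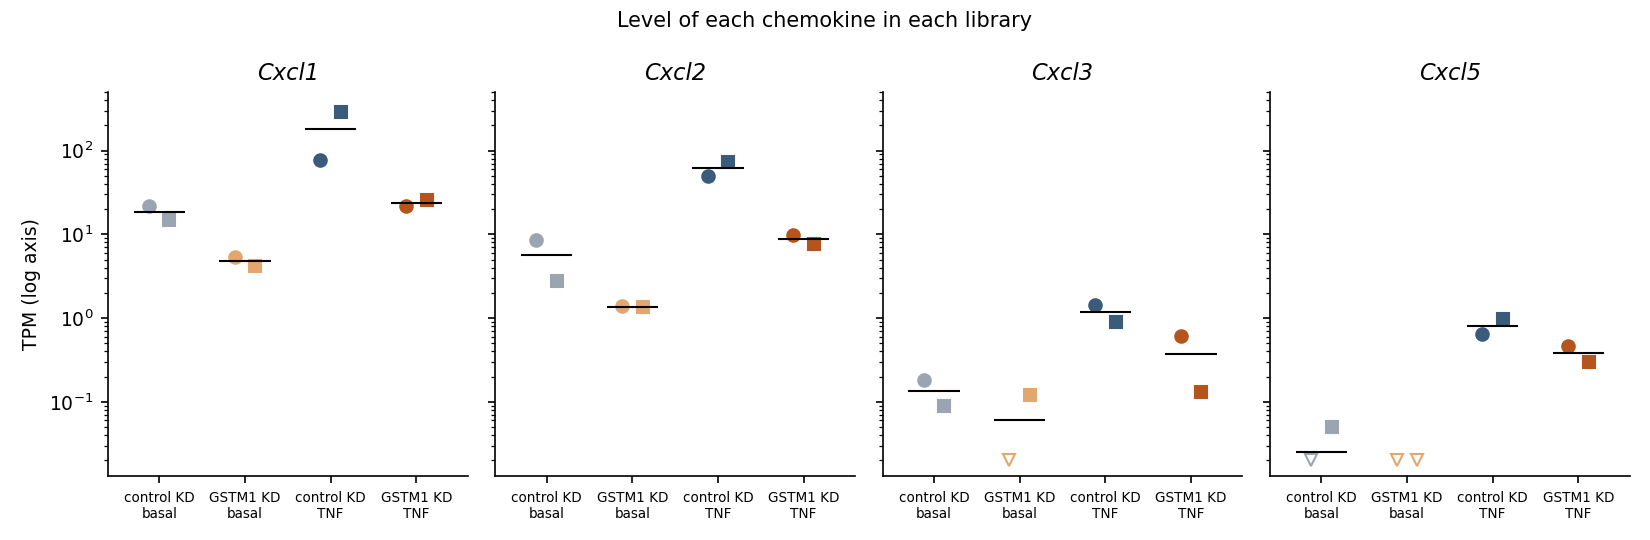
TPM (log axis) of the 4 chemokines in each library, circles for replicate 1 and squares for replicate 2, with the mean of the 2 as a line; open triangles at the foot mark libraries with 0 TPM. Cxcl1 spans 4.14 to 286.18 TPM, whereas Cxcl3 and Cxcl5 stay at or under 1.44.

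The composition of the summed level of the 4 genes varied less between groups than its amount. The sum was 30.69 and 17.84 TPM in control KD at the basal level, 6.79 and 5.60 in GSTM1 KD, 127.79 and 360.61 in control KD after TNF-α, and 32.85 and 33.55 in GSTM1 KD after TNF-α. Cxcl1 made up 77.6% ± 8.44 of it in control KD at the basal level (SD, n = 2) and 76.8% ± 4.06 in GSTM1 KD. After TNF-α it made up 69.4% ± 14.0 in control KD and 71.4% ± 6.28 in GSTM1 KD. The difference between control KD and GSTM1 KD was under the spread of the control pair in both states. Cxcl2 made up 21.8%, 22.1%, 29.5% and 26.3% in the same order. The ratio of Cxcl1 to Cxcl2 differed more within the control pairs (2.57 and 5.32 unstimulated, 1.53 and 3.95 after TNF-α) than between the group means.

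**Figure D3:**
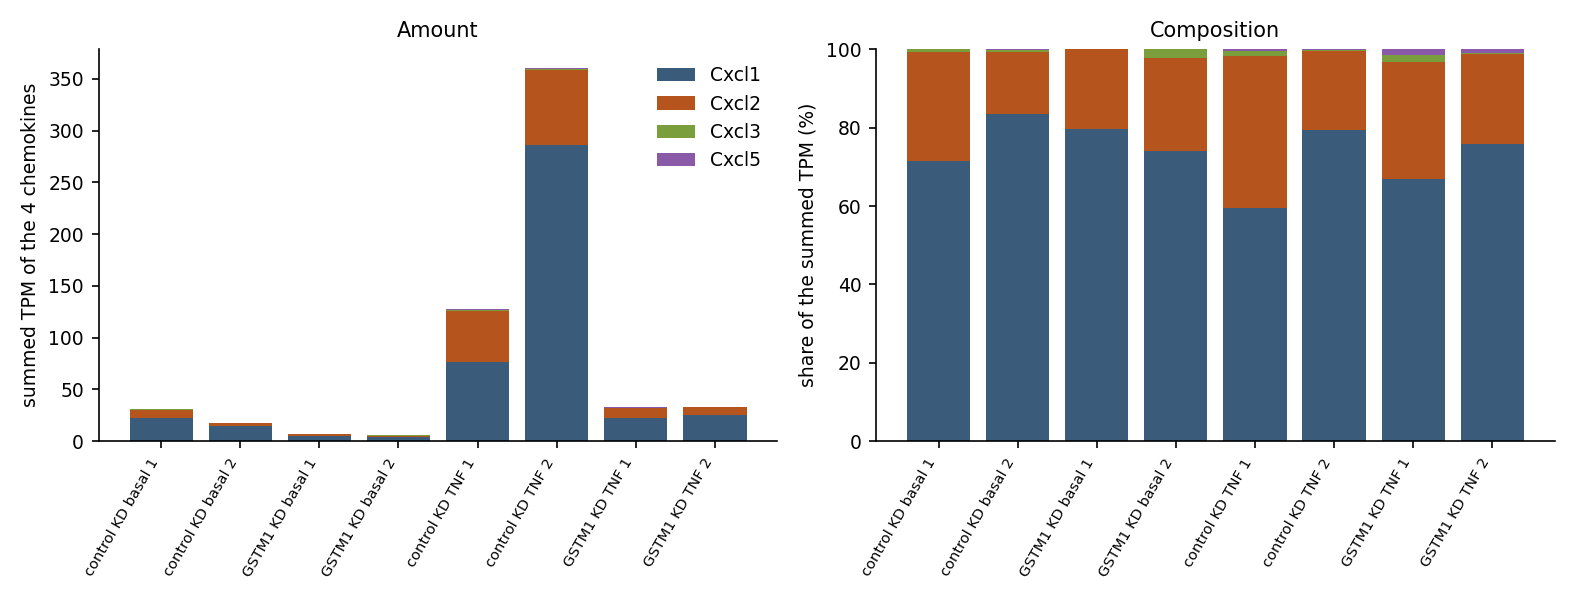
Summed TPM of the 4 chemokines in each library (left) and the share of each gene in that sum in percent (right), by group and replicate. The sum ranges from 5.60 to 360.61 TPM, and Cxcl1 holds 59.5% to 83.5% of it.

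At the basal level, the comparison asks whether GSTM1 KD shifts the chemokines without TNF-α. Cxcl1 was 4.06-fold lower in GSTM1 KD (log2 fold change -2.02, SE 0.32, 95% interval -2.81 to -1.23; edgeR, adjusted p = 0.0261), and its groups did not overlap. Cxcl2 had a log2 fold change of -2.26 (SE 0.57, 95% interval -3.68 to -0.84) with an adjusted p = 0.0641 by edgeR, short of the threshold. It passed by DESeq2 (adjusted p = 0.0125) and in the edgeR fit over all 8 libraries (0.0313). With no filter on low counts it passed too, but its SE was 0.43 against 0.57 on the same counts, and that call is not taken as support. It also passed with a replicate block (edgeR, adjusted p = 0.0036), though the labels do not say what the replicate numbers mark. By limma on log2(TPM + 0.5) it did not pass (adjusted p = 0.113). Cxcl3 and Cxcl5 failed the filter on low counts, Cxcl3 with 5 counts in the control group against 1, and Cxcl5 at 1 and 0 counts, at or under the floor of 3 counts over a group. Of the 4 genes 2 were tested and 1 was called lower, where 5.62% of 14899 genes were called lower and 4.60% higher. The call for Cxcl1 was lost in the fit over all 8 libraries (adjusted p = 0.0738). Without GSTM1 KD replicate 1 or 2, fits that called 1 and 3 genes in all against 1524, Cxcl1 had log2 fold changes of -2.24 and -1.85 (adjusted p = 0.105 and 0.168). Cxcl2 was at -1.49 without control replicate 1 (adjusted p = 0.111) and was called without control replicate 2 (-2.75, 0.00168).

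After TNF-α, the abundant genes were lower by similar factors. Cxcl1 was 7.77-fold lower in GSTM1 KD (log2 fold change -2.96, SE 0.62, 95% interval -4.50 to -1.42; edgeR, adjusted p = 0.0346) and Cxcl2 7.64-fold lower (-2.93, SE 0.29, 95% interval -3.65 to -2.22; adjusted p = 0.0106). Cxcl5 had a log2 fold change of -1.07 (SE 0.51, 95% interval -2.34 to 0.19; edgeR, adjusted p = 0.189). It was at 0.52 and 0.78 CPM in the control libraries and at 0.37 and 0.23 in the GSTM1 KD ones. Cxcl5 thus passed the filter on low counts only through the control group, so its difference is no separate finding. Cxcl3, not tested because of its low counts, had 7 counts against 24, a ratio scaled for depth of 3.36-fold lower in GSTM1 KD with an exact 95% interval of 1.41 to 9.24 that covers counting error only. That ratio rests on few reads: on the log2 scale it was -1.75, and with 1 library left out it ran from -3.39, without replicate 1 of GSTM1 KD, to -1.12, without replicate 2. Of the 4 genes 3 were tested, Cxcl5 only through its control libraries, and 2 were called lower. Of all 14593 genes tested 8.92% were called lower and 7.26% higher.

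For Cxcl1 after TNF-α the size of the change depends on the uneven control pair. Its log2 fold change was -1.73 without control replicate 2 and -3.62 without control replicate 1, with adjusted p = 0.000683 and 8.75e-05 by edgeR. Without either GSTM1 KD library, fits that called at most 94 genes in all against 2360, neither Cxcl1 (adjusted p = 0.141 and 0.147) nor Cxcl2 (0.0648 and 0.0516) was called, so these fits say little about the 2 genes, with log2 fold changes of -2.83 and -3.08 for Cxcl1 and -2.99 and -2.87 for Cxcl2. Values of limma on log2(TPM + 0.5) also left Cxcl1 short of the threshold (log2 fold change -2.62, adjusted p = 0.0573).

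The induction by TNF-α is a separate quantity from the level. In control KD, Cxcl1 rose 9.85-fold (log2 fold change 3.30, SE 0.58; edgeR, adjusted p = 0.0318) and Cxcl2 12.2-fold (3.61, SE 0.43; adjusted p = 0.00802), and neither gene's groups overlapped. Cxcl5 went from 1 count to 25, a ratio of 38.2 with an exact 95% interval of 6.26 to 1570 (adjusted p = 0.0508 by edgeR, not past the threshold). Cxcl3 went from 5 counts to 24, a ratio of 7.34 with an interval of 2.75 to 24.6. These ratios, 5.26 and 2.88 on the log2 scale, were 4.004 for Cxcl5 and 3.95 for Cxcl3 without control basal replicate 1. Of the 3 genes tested 2 were called higher, where 2.10% of 15332 genes were called higher and 0.528% lower. Cxcl5 entered the test only through its TNF-α libraries, so its difference is no separate finding. The call for Cxcl1 was lost without control basal replicate 1 (adjusted p = 0.0897) or 2 (0.155), and its log2 fold change was 2.08 without control TNF-α replicate 2 and 3.96 without replicate 1. For Cxcl2 the log2 fold change was 4.39 without control basal replicate 1 and the call was kept in all 4 such fits. In a fit of only the 4 control libraries neither gene was called (adjusted p = 0.206 and 0.0886).

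In GSTM1 KD astrocytes 1 of the 4 genes passed the test of a response. Cxcl2 rose 7.81-fold (log2 fold change 2.97, SE 0.54, 95% interval 1.69 to 4.24; edgeR, adjusted p = 0.0374). Cxcl1 had a log2 fold change of 2.38 (SE 0.66, 95% interval 0.83 to 3.94), with an adjusted p = 0.165 by edgeR that did not pass. By DESeq2 (adjusted p = 0.0209) and in the edgeR fit of the 4 GSTM1 KD libraries (0.0064) Cxcl1 did pass. With no filter on low counts it passed too, but its SE was 0.21 against 0.66 on the same counts. That call is not taken as support. Cxcl5 went from 0 counts to 12, at least 4.43-fold higher when 3 counts over the group are taken as the floor (adjusted p = 0.124 by edgeR), and Cxcl3 from 1 count to 7, a ratio of 7.76 with an exact interval of 0.996 to 350. The log2 ratio of Cxcl3, 2.96, was 1.31 without GSTM1 KD TNF-α replicate 1, 3.58 without replicate 2 and 1.84 without basal replicate 1. Of the 3 genes tested 1 was called higher, where 2.35% of 15332 genes were called higher and 0.294% lower. Cxcl5 entered this test only through the control KD libraries after TNF-α, which are in neither group compared, so its value is no separate finding. The call for Cxcl2 was lost when any 1 of the 4 GSTM1 KD libraries was left out (adjusted p from 0.132 to 0.321).

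Whether the fold induction itself differed was tested as the interaction. The TNF-α response of Cxcl1 in GSTM1 KD minus that in control KD was -0.92 on the log2 scale (95% interval -2.96 to 1.13) and that of Cxcl2 was -0.64 (-2.35 to 1.07), both with an adjusted p = 1 by edgeR. Cxcl5, tested as well, had 0.96 (-1.88 to 3.80; adjusted p = 1), a fitted value that rests on a group with 0 counts. The intervals of Cxcl1 and Cxcl2 hold both equal induction and a more than 4-fold weaker one. For Cxcl1 the difference was 0.30, of the opposite sign, without control TNF-α replicate 2. For Cxcl2 it ran from -1.42, without control basal replicate 1, to -0.18, without control basal replicate 2. Of 15332 genes 0 were called by edgeR (0%), with 295 at an unadjusted p under 0.05, and 27 of 17235 were called by DESeq2 and 1 of 16161 by limma on log2(TPM + 0.5). So the lower level after TNF-α was past the threshold and a weaker fold induction was not.

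Counted as added transcript rather than as fold, the inductions lay further apart. TNF-α added 163 TPM of Cxcl1 in control KD (SE 105) and 18.95 in GSTM1 KD (SE 1.84), 11.7% as much. The control value rests on the uneven pair: it was 57.6 TPM without control TNF-α replicate 2, which puts GSTM1 KD at 32.9% of it, and 268 TPM without replicate 1, at 7.08%. It added 55.4 TPM of Cxcl2 in control KD (SE 11.8) and 7.36 in GSTM1 KD (SE 1.05), 13.3% as much (11.01% to 16.75% with any 1 library left out). For Cxcl3 and Cxcl5 the added levels in GSTM1 KD were 29.8% and 48.7% of those in control KD, on 7 and 12 counts in the GSTM1 KD libraries after TNF-α. With 1 library left out they ran from 6.73% to 52.9% for Cxcl3 (without GSTM1 KD TNF-α replicate 1 and 2) and from 38.0% to 61.6% for Cxcl5. The differences between added levels were not tested.

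GSTM1 KD astrocytes after TNF-α were also set against control KD astrocytes that had not been stimulated. The log2 fold change of Cxcl1 was 0.36 (95% interval -0.97 to 1.70; edgeR, adjusted p = 0.682). Its groups overlapped in TMM-scaled counts, and in TPM the lower stimulated library (22.00) lay just above the higher control one (21.97). The groups of Cxcl2 overlapped in TPM but not in TMM-scaled counts, and its log2 fold change was 0.69 (-0.32 to 1.70; edgeR, adjusted p = 0.287). With 1 library left out it ran from 0.21, without control replicate 2, to 1.47, without control replicate 1 (adjusted p = 0.0738), and that of Cxcl1 from 0.08 to 0.70. The intervals leave room for about a 3-fold difference upwards, so equal levels were not shown. Cxcl3, not tested, had 7 counts against 5, a ratio of 2.19 with an exact interval of 0.597 to 8.73, and its log2 ratio of 1.13 turned to -0.51 without replicate 1 of stimulated GSTM1 KD. Cxcl5 was the 1 member called higher (12 counts against 1, a ratio of 18.7 with an exact interval of 2.77 to 800.5; edgeR, adjusted p = 0.0407), where 11.4% of 15332 genes were called higher and 10.3% lower. It entered this test only through the control KD libraries after TNF-α, which are in neither group compared, so the call is no separate finding. The log2 ratio of its summed counts, 4.23, was 2.97 without control basal replicate 1. Its call was lost without control basal replicate 1 (0.172) or without GSTM1 KD replicate 1 (0.179) or 2 (0.123).

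**Figure D4:**
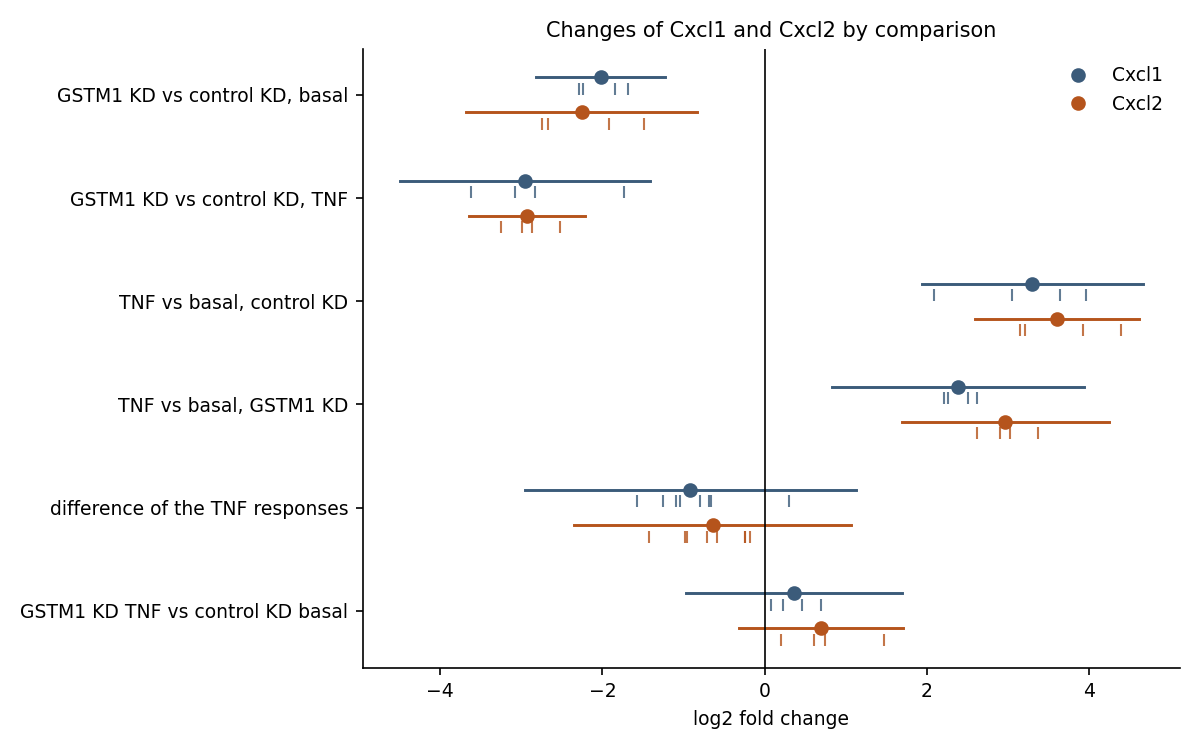
Log2 fold changes of Cxcl1 and Cxcl2 in the 6 comparisons, as points with 95% intervals from edgeR; ticks under each interval are the values with 1 library left out. The tick of Cxcl1 that crosses 0 in the difference of the responses (0.30) is the fit without control TNF-α replicate 2.

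Of the 6 other genes of the CXCR2 axis, 1 (Ackr1) passed the filter on low counts in the knockdown comparisons and 2 (Ackr1 and Pf4) in the others, and 0 of these tests were past the threshold. Cxcr2, the receptor, had 1 count in 1 library and 0 in the other 7, and Cxcr1 and Cxcl15 had 0 in all 8, which bears on these cultures' RNA only. Ppbp, a platelet CXCR2 ligand in the same cluster, had 0 to 9 counts per library, and its neighbour Pf4, a platelet chemokine, 0 to 16. Ackr1, a scavenging receptor of these ligands, had 5 to 17 counts and a log2 fold change of 1.05 after TNF-α in GSTM1 KD (edgeR, adjusted p = 0.149).

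Among 23 other chemokine genes, 15 passed the filter on low counts after TNF-α, and 4 were lower in GSTM1 KD and 0 higher, where 8.92% of all genes tested were called lower. Ccl20, a CCR6 ligand, had a log2 fold change of -2.03 (SE 0.23; edgeR, adjusted p = 0.0119), Cxcl16, the CXCR6 ligand, -1.26 (SE 0.15; 0.0129), Ccl7 -1.73 (SE 0.26; 0.0180) and Ccl2, the main monocyte attractant, -1.03 (SE 0.17; 0.0216). The median of the 15 was -0.24 and of all genes tested -0.01, against -2.96 and -2.93 for Cxcl1 and Cxcl2. Cxcl5, tested only through its control libraries, was at -1.07, within the range of the 15. Of the 15, Cxcl9 passed the filter only through its GSTM1 KD libraries (9 and 12 counts in control KD), so its value is no separate finding. Cxcl10, an interferon-responsive chemokine, was at 0.46 (adjusted p = 0.179). At the basal level 10 were tested and 3 were lower, where 5.62% of all genes were, namely Ccl2 (-3.38, adjusted p = 0.0194), Ccl7 (-3.09, 0.0270) and Cxcl10 (-1.45, 0.0476), while Cx3cl1, a membrane-bound neuronal chemokine, was higher (0.71, 0.0285). In response to TNF-α, 6 of these 10 rose in control KD, where 2.10% of all genes did, and the same 6 in GSTM1 KD, where 2.35% did. Another 5, Ccl9, Ccl17, Ccl20, Cxcl9 and Cxcl11, entered these tests only through their TNF-α libraries and are left out of the counts.

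**Figure D5:**
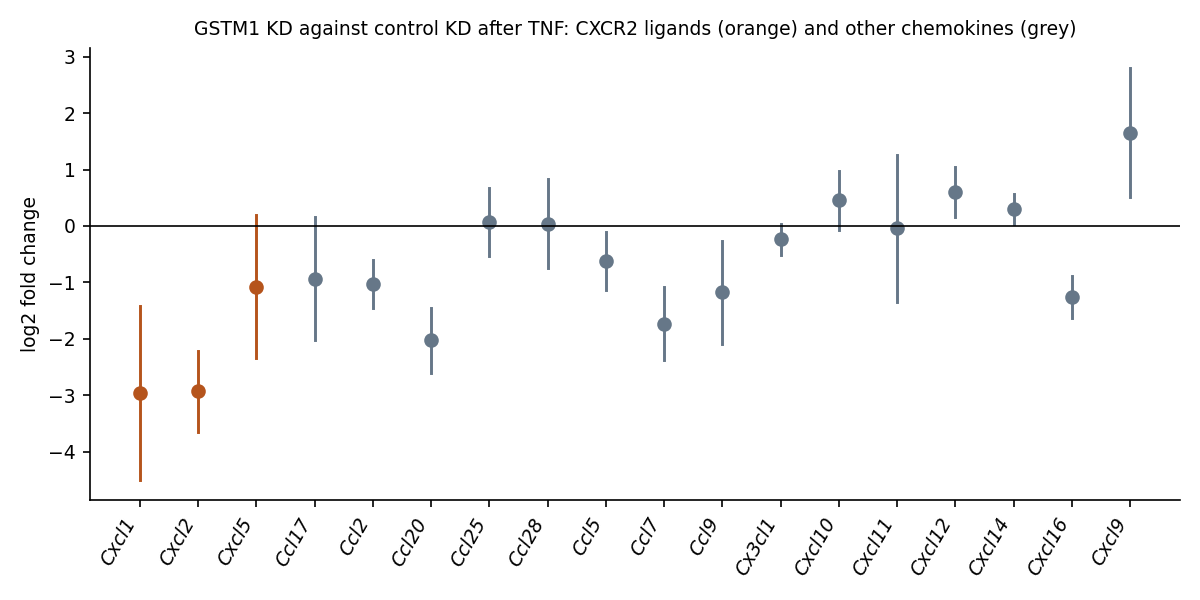
Log2 fold change of GSTM1 KD against control KD after TNF-α for the tested CXCR2 ligands (orange) and the 15 tested other chemokines (grey), with 95% intervals from edgeR. Cxcl1 and Cxcl2 lie near -3, and the other chemokines between -2.03 and 1.66. The upper end is Cxcl9, which passed the filter on low counts only through its GSTM1 KD libraries. Cxcl5 passed the filter on low counts only through its control libraries.

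The regulators of these promoters and mRNAs were read next. Of 12 transcription genes, Rela, the p65 subunit of NF-κB, was lower in unstimulated GSTM1 KD astrocytes (log2 fold change -0.61; edgeR, adjusted p = 0.0270) and with TNF-α (-0.76, 0.0153). Atf3, a stress-induced factor, was higher in both states (0.91, 0.0299; 0.68, 0.0317), and Jun was higher after TNF-α (0.43, 0.0482). Of the 12, 1 was thus lower and 1 higher unstimulated, and 1 lower and 2 higher with TNF-α, where 5.62% and 4.60% of all genes, then 8.92% and 7.26%, were called in these directions, so the 1 lower gene of 12 is near the share over all genes. Nfkbia, the NF-κB inhibitor whose mRNA is itself induced by NF-κB, rose in GSTM1 KD (3.81, adjusted p = 0.000255) as in control KD (3.31, 0.000239). In response to TNF-α, 7 of the 12 rose in each kind of astrocyte, where 2.10% of all genes did in control KD and 2.35% in GSTM1 KD. The TNF receptor Tnfrsf1b was lower in unstimulated GSTM1 KD astrocytes (-1.26, 0.0428) and not called after TNF-α (-0.88, 0.0811). Tnfrsf1a had log2 fold changes of -0.14 (0.519) unstimulated and -0.06 (0.77) after TNF-α.

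Of 7 genes for mRNA decay or stability, Zfp36, which destabilizes AU-rich mRNAs, was lower in GSTM1 KD at the basal level (-0.80; edgeR, adjusted p = 0.0296) and not called after TNF-α (-0.03, 0.909). Zfp36 rose with TNF-α in GSTM1 KD (1.20, 0.00421) and had a log2 fold change of 0.40 in control KD (0.205), and the difference of these responses was not called (adjusted p = 1). Its relative Zfp36l1 was called in control KD (1.19, 0.0364) and not in GSTM1 KD (0.96, 0.0792). Of the 7 genes 1 was thus called higher in each kind of astrocyte, where 2.10% and 2.35% of all genes were. Zfp36l2, of the same family, was lower in both states (-0.76, 0.0348; -0.63, 0.0322). Of the 7, 2 were called lower in unstimulated GSTM1 KD astrocytes and 1 after TNF-α, where 5.62% and 8.92% of all genes were. The part of any of these genes in the chemokine levels was not tested.

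Summed levels of 3 other marker lists were lower in GSTM1 KD, without overlap in either state except for the microglia list after TNF-α. The 8 microglia and macrophage markers summed to 2.88 to 7.0 TPM in control KD at the basal level and 1.52 to 2.22 in GSTM1 KD, and after TNF-α to 2.16 to 6.63 and 1.98 to 4.16. The 6 endothelial markers summed to 5.75 to 6.34 TPM and 3.18 to 3.99 at the basal level and to 6.79 to 8.27 and 4.10 to 5.40 after TNF-α, with Cldn5 at 0 counts in all 8. Of the 3 endothelial markers tested, Flt1 and Cdh5 had log2 fold changes below 0 in both states, and Kdr was on the other side of 0 (1.39 and 1.25), none past the threshold. The 6 oligodendrocyte-lineage markers summed to 94.1 to 116.9 TPM and 62.3 to 62.9, and to 76.1 to 83.0 and 38.1 to 41.3. Of these 20 genes 10 passed the filter on low counts in each state, and Olig2 alone was called, as lower (edgeR, adjusted p = 0.0250 and 0.0101), where 5.62% and 8.92% of all genes were called lower. The 4 ependymal and choroid plexus markers summed to 75.2 to 117.2 TPM in unstimulated control KD and 98.6 to 109.6 in GSTM1 KD, which overlap, and after TNF-α to 64.8 to 75.2 and 86.7 to 99.5, which do not. The sums of the 6 fibroblast and mural markers overlapped in both states, and of these Pdgfrb was called, as higher in GSTM1 KD after TNF-α (log2 fold change 0.81; edgeR, adjusted p = 0.0337), with Rgs5 at 1.55, Dcn at 0.35, Col1a1 at -0.46 and Col3a1 at -0.87, none past the threshold. The part of these cells in the chemokine levels was not tested, and in bulk RNA fewer expressing cells and less RNA per cell cannot be told apart.

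Across the 8 libraries the log2 levels of Cxcl1 and Cxcl2 had a Pearson r of 0.972, and Cxcl5 had 0.860 with Cxcl1 and 0.886 with Cxcl2. These are descriptions over 8 points that share the libraries and the 4 groups. Cxcl5 had at most 1 count in any unstimulated library, so its log2 levels there rest largely on the prior count of 2. That limits its correlations and the mean profile, of which it is 1 of 3 genes. The genes most like the mean profile of the 3 were Lhfpl2 (r = 0.993), Pde1a, a calcium-dependent phosphodiesterase (0.992), Bach1, a haem-regulated repressor of antioxidant genes (0.990), Ppp1r21 (0.989) and Cgn, the tight-junction protein cingulin (0.988), of 15332 compared. They followed the pattern over a smaller range. Bach1 averaged 32.3 CPM in unstimulated control KD libraries and 22.3 in GSTM1 KD ones, and after TNF-α 80.85 and 42.8.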

How the data were processed

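The 8 libraries were grouped by their labels. The authors prepared directional libraries, and the submitters' processing notes name STAR (version 2.5.4b) and RSEM (version 1.3.0) with GRCm38. Whether counting used strand is not given in the sources used here. The deposited expected counts are RSEM estimates per gene, which may divide shared reads. The deposited TPM values are scaled for length and library by the authors' RSEM run. The effective length is in bases.

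Expected counts were rounded. edgeR (version 4.0.16, R version 4.3.3) with TMM scaling and filterByExpr gave quasi-likelihood tests over all genes, Benjamini-Hochberg adjusted at 0.05. Knockdowns were compared on the 4 libraries of each state, and responses, their difference and GSTM1 KD after TNF-α against control KD basal on all 8. CPM are TMM-scaled. Ratios of low counts carry exact (Clopper-Pearson) 95% intervals, which like the floor of 3 counts cover counting error only.

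The 4 genes were all named, and from each list the genes with the smallest p-values and those at or near 0. Members and lists were chosen with earlier results of these data known. Likeness is Pearson r to the mean z-scored log2 CPM (prior count 2). Leaving out libraries from the added TPM was chosen after the data were seen. Alternatives were DESeq2 (version 1.42.0) as a test and as size factors, no filter, all 8 or only 4 libraries, a replicate block, limma (version 3.58.1) on TPM of at least 0.5 in 2 libraries with pseudocounts 0.5 and 0.1, count shares in place of TPM shares, and each library left out. The fits were tested on simulated data, and no result given here rests on that test. Sequences come from RefSeq (GRCm38.p6) promoters and GENCODE M21 transcripts numbered 201, read in Python (version 3.11.15). Figures used matplotlib version 3.10.9.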

Additional observations from a re-analysis of the deposited data

How the results depend on the processing

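Of the alternative values for Cxcl1, Cxcl2 and Cxcl5, 143 kept the direction and the side of the threshold of the value reported, 23 lost a call, 11 gained one and 1 turned. In edgeR over all 8 libraries the basal log2 fold change of Cxcl1 was -2.02 (no longer called) and that of Cxcl2 -2.27 (called). DESeq2 called Cxcl2 at the basal level (-2.26) and the response of Cxcl1 in GSTM1 KD (2.39). Without a filter on low counts Cxcl2 at the basal level (-2.29), the response of Cxcl1 in GSTM1 KD (2.37) and those of Cxcl5 (edgeR, adjusted p = 0.000651 in control KD and 0.0217 in GSTM1 KD) were called. In that setting the SE of Cxcl1 after TNF-α was 0.16 against 0.62, although its control pair lay 3.72-fold apart. These calls are therefore not taken as support. In fits of only 4 libraries the responses in control KD were not called (3.31 for Cxcl1, 3.61 for Cxcl2) and that of Cxcl1 in GSTM1 KD was (2.39). With limma on TPM the calls for Cxcl1 after TNF-α (-2.62 and -2.64 with pseudocounts 0.5 and 0.1), for the response of Cxcl2 in GSTM1 KD (2.30 with 0.5) and for Cxcl5 against unstimulated control KD (adjusted p = 0.122 and 0.0877) were lost. The cause of these differences was not tested.

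With 1 library left out, where the lone sample is assumed to vary like the other groups, the log2 fold change of Cxcl1 ran from -2.29 to -1.69 at the basal level, -3.62 to -1.73 after TNF-α, 2.08 to 3.96 for the response in control KD, 2.21 to 2.61 in GSTM1 KD and -1.57 to 0.30 for their difference. For Cxcl2 it ran from -2.75 to -1.49, -3.26 to -2.52, 3.15 to 4.39, 2.62 to 3.37 and -1.42 to -0.18. The adjusted p of Cxcl5 against unstimulated control KD ran from 0.0471 to 0.179.

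The replicate numbers are shared by the groups, but the labels do not say what they mark, and the deviations of same-numbered libraries had correlations of 0.165 to 0.575 over 6 pairs of groups. With a replicate block Cxcl2 at the basal level (-2.17) and the response of Cxcl5 in control KD (adjusted p = 0.0359) were called, and no other call of the 3 genes changed. Over all genes, the number called was 1524 at the basal level (715 to 4712 over the alternatives, leaving out none), 2360 after TNF-α (1231 to 4540), 403 and 406 for the responses (72 to 1255 and 320 to 1050), 0 for their difference (0 to 134) and 3335 against unstimulated control KD (2144 to 5716). The difference of the responses was not run on 4 libraries, which do not hold it. Depth limits Cxcl3 and Cxcl5, at no more than 17 counts in any library.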
